A study of Mus musculus with 6 samples.

Results

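Polycomb repressive complex 2 (PRC2) is described here by the RNA levels of 9 of its subunit genes, the catalytic subunits Ezh1 and Ezh2, the core subunits Eed and Suz12, and the accessory subunits Jarid2, Aebp2, Mtf2, Phf1 and Phf19. A gene was a member if its symbol in the deposited table equalled one of these names, which gave 9 of the 14005 genes listed, and 9 of 9 were among the 13991 genes that passed the filter on low values. PRC2 methylates lysine 27 of histone H3, and the resulting mark, H3K27me3, is found over silent developmental genes, where PRC1, the other main Polycomb complex, can recognise it. A PRC2 core holds EZH1 or EZH2 together with EED and SUZ12, and it joins either JARID2 and AEBP2 (the form called PRC2.2) or one of the Polycomb-like proteins MTF2, PHF1 and PHF19 (the form called PRC2.1). In dividing embryonic cells EZH2 is regarded as the main catalytic subunit, whereas EZH1 is better known from differentiated cells and from blood.

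The RNA came from FLK1+ mesodermal cells taken at day 3.5 of embryoid body (EB) differentiation of mouse embryonic stem (ES) cells. The 6 libraries fell into 2 groups of 3, WT cells of the J1 line and Scl-/- cells, which lack the blood transcription factor SCL (gene Tal1). The labels give no treatment. Both groups carried replicate numbers 1 to 3 and came from 3 independent differentiations. The strain was labelled C57Bl/6 X Sv129 for WT replicates 1 and 2 and Scl-/- replicate 1, with Sv130, Sv131 and Sv132 in its place for Scl-/- replicate 2, WT replicate 3 and Scl-/- replicate 3. These numbers count up by library and may be an error of entry, so they are not taken as a difference in strain between replicates. The study's methods name 1 ES cell line per genotype, so that genotype and line cannot be told apart. The values were counts-per-million (CPM), on 38623641 to 47621120 reads per library, at which 3 reads on a gene correspond to 0.0615 to 0.0784 CPM. Phf19, the lowest member, had 140 to 256 reads per library, and the 95% Poisson interval of its lowest count was 118 to 165 reads. Jarid2, the highest on average, had 6929 to 23929 reads. Tal1 checked the genotype labels, with 303, 182 and 306 CPM in WT and 9.35, 5.68 and 5.87 CPM in Scl-/- replicates 1 to 3. Kdr, which encodes FLK1, had 868, 832 and 867 CPM in WT and 724, 777 and 810.4 CPM in Scl-/- cells, so the sorted marker was abundant in every library.

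Between the genotypes, none of the PRC2 genes separated the groups. Small opposite shifts of Ezh1 and Suz12 passed the test when same-numbered differentiations were compared with each other, but neither call held in every setting: that of Ezh1 was lost without any one pair, that of Suz12 without pair 2 or 3 and after removal of its chromosome's shift, and both without limma's intensity trend. Of the 9 genes, 6 had a lower and 3 a higher mean log2 level in Scl-/- cells. Their log2 fold changes, Scl-/- against WT on the log2(CPM + 0.5) scale, ran from -0.38 for Ezh1 to 0.32 for Suz12 with a median of -0.059, against a median of 0.009 over all tested genes. The WT and Scl-/- libraries stood apart without overlap in 0 of the 9, against 21.6% of all tested genes. With limma and Benjamini-Hochberg adjustment over all tested genes, 0 of 9 were called at an adjusted p under 0.05, against 2.38% of all tested genes, and 0 of 9 had an unadjusted p under 0.05. The share of all tested genes at that unadjusted p was not worked out, so the second count has no baseline here. When replicate number was added to the model as a block, which compares each Scl-/- library with the WT library of the same number, 2 of 9 were called: Ezh1 was lower, against 12.2% of all tested genes called lower, and Suz12 was higher, against 12.0% called higher. The share of members called was thus close to that of all genes. In 5 of 9 genes the 3 pairs had the same direction (Ezh1, Ezh2 and Aebp2 lower, Suz12 and Mtf2 higher), against 56.2% of all tested genes.

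**Figure D1:**
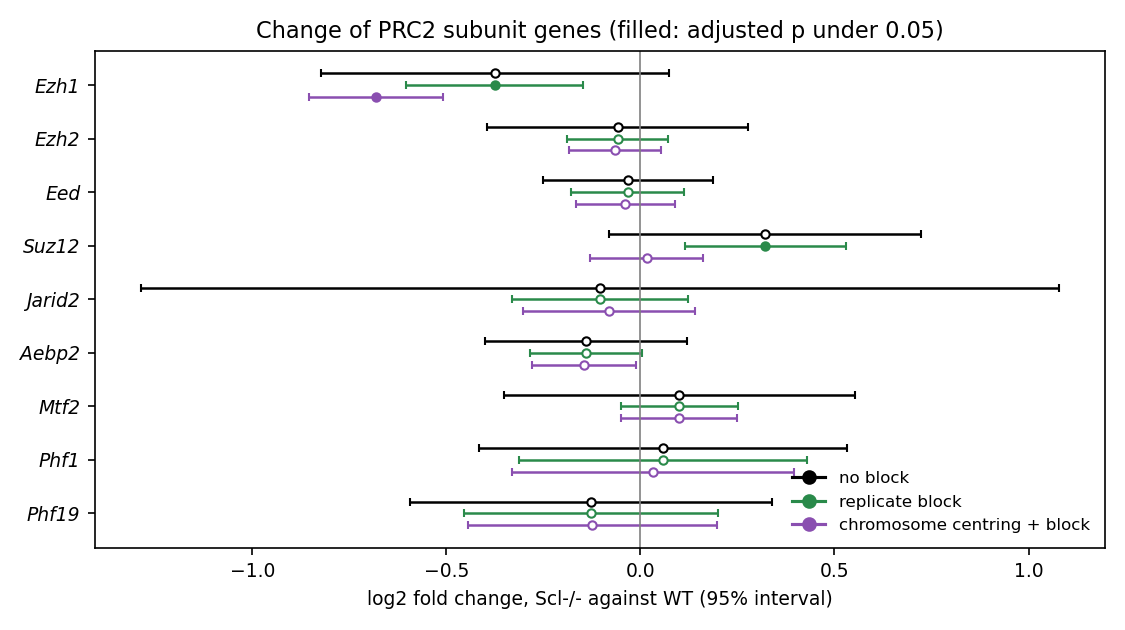
Log2 fold change (Scl-/- against WT, x axis) of each PRC2 gene with its 95% interval from limma, without the replicate block, with it, and with each chromosome's median shift removed as well (n = 3 libraries per group). Filled points have an adjusted p under 0.05. Ezh1 at -0.38 and Suz12 at 0.32 were called with the block, and after removal of the chromosome shift Ezh1 lay at -0.68 and Suz12 at 0.016.

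The promoters of Ezh1, Ezh2 and Suz12 are shown because Ezh1 and Suz12 are the members called with the block and Ezh2 is the counterpart of Ezh1. Sequences were matched by symbol for 9 of 9 genes in RefSeq promoters of GRCm38.p6, another build than that of the gene positions given below, and run 5′ to 3′ from 250 bases before to 50 bases after the gene's start. They lie at chr11:101226414-101226713 on the minus strand (Ezh1), chr6:47594981-47595280 on the minus strand (Ezh2) and chr11:79992856-79993155 on the plus strand (Suz12). Capitals mark the E-box CANNTG, the motif class bound by SCL with its partners, and the E2F words TTTCCCGC, TTTGGCGC, TTTCGCGC and TTTGCCGC, each searched on both strands.
Ezh1 promoter: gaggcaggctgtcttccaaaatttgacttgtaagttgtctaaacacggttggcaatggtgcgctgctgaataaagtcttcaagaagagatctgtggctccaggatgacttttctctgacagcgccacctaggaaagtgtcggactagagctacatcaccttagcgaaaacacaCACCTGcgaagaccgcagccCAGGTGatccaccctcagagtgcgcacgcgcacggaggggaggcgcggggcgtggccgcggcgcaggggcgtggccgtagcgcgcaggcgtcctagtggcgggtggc
Ezh2 promoter: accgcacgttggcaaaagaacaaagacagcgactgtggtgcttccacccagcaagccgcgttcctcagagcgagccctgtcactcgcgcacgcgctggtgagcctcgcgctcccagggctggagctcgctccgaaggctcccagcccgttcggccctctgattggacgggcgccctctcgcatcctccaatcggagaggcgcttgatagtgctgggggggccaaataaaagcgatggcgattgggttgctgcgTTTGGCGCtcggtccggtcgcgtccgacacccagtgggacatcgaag
Suz12 promoter: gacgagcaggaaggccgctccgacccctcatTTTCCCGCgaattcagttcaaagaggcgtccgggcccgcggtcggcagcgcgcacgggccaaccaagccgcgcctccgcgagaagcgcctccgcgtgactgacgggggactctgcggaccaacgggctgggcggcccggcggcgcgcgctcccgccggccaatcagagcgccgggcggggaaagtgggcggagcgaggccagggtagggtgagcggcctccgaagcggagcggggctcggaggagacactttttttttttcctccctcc
The Ezh1 window held 2 E-boxes and 0 E2F words, whereas Ezh2 and Suz12 each held 0 E-boxes and 1 E2F word. E-boxes do not set Ezh1 apart among the members, since the Eed window also held 2 E-boxes and 0 E2F words, Phf1 and Phf19 held 1 E-box each, and Jarid2 and Mtf2, which have 2 windows each, held 1 and 3 E-boxes in one of them. The Phf19 window held 1 E2F word as well. Of 32851 promoters of this length, 72.3% held an E-box and 2.26% an E2F word, so an E-box in such a window is common. The motif GATA, which is found in 57.9% of promoters, occurred 0 times at Ezh1, 1 time at Ezh2 and 0 times at Suz12. The CCAAT box, found in 37.4%, occurred 0, 3 and 1 times. All 3 windows were rich in CpG, with 23, 31 and 41 CpG dinucleotides at Ezh1, Ezh2 and Suz12 against a median of 7. These matches describe the letters, and binding data were not used here.

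Ezh1 (ENSMUSG00000006920), a histone methyltransferase, was the member with the lowest fold change. The gene, whose promoter with 2 E-boxes is printed above, lies on the minus strand of chromosome 11, from 101052429 to 101087777 in the mm9 annotation. Ezh1 had 48.7, 33.9 and 47.7 CPM in WT and 31.1, 28.3 and 40.7 CPM in Scl-/- replicates 1 to 3. WT replicates 1 and 3 lay above every Scl-/- library, but WT replicate 2 was below Scl-/- replicate 3, so the groups overlapped. Replicate 2 was the lowest library of both groups. The mean was 43.4 ± 8.29 CPM in WT and 33.3 ± 6.52 CPM in Scl-/- cells (SD, n = 3), or 76.8% of the WT mean. Each Scl-/- library was below its WT counterpart, by log2 differences of -0.64, -0.26 and -0.23. The log2 fold change was -0.38 (SE, the standard error, 0.19, 95% interval -0.82 to 0.074, adjusted p = 0.377, limma with Benjamini-Hochberg). With the replicate block the standard error was 0.099, the interval -0.60 to -0.15 and limma's adjusted p = 0.0282. This call was lost when any one pair was left out, with limma's adjusted p = 0.0774 without replicate 1, 0.0922 without replicate 2 and 0.0619 without replicate 3, and log2 fold changes from -0.45 to -0.24. It was also lost in a fit with the block but no intensity trend (limma's adjusted p = 0.0714). In bulk RNA such as this, fewer cells that express a gene and less RNA per cell cannot be told apart.

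Ezh2 (ENSMUSG00000029687), the other methyltransferase, lies on chromosome 6 from 47480273 to 47545340 (minus strand, mm9). It had 204, 209 and 161 CPM in WT and 199, 195 and 156 CPM in Scl-/- replicates 1 to 3. The 2 groups covered nearly the same range, and in both of them replicate 3 was the lowest library. With 191 ± 26.6 CPM in WT and 183 ± 23.7 CPM in Scl-/- cells (SD, n = 3), the log2 fold change was -0.059 (SE 0.14, adjusted p = 0.916, limma with Benjamini-Hochberg). With the block the 95% interval was -0.19 to 0.072 (limma's adjusted p = 0.505), which bounds a difference but does not show that there was none. All 3 pairs were slightly lower in Scl-/- cells, by -0.036, -0.099 and -0.042 on the log2 scale. The annotation places a long non-coding RNA, Gm17629, on the opposite strand within Ezh2. It was listed at 12.1 ± 0.352 CPM in WT and 12.5 ± 0.857 CPM in Scl-/- cells (SD, n = 3), and whether reads were counted by strand is not given in the sources used here.

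The ratio of Ezh1 to Ezh2 in CPM was 23.9%, 16.2% and 29.7% in WT and 15.6%, 14.5% and 26.1% in Scl-/- replicates 1 to 3. In each pair the Scl-/- library had the lower ratio, but Scl-/- replicate 3 exceeded WT replicates 1 and 2. Replicate 2 had the smallest ratio in both groups and replicate 3 the largest. On the log2 scale the mean difference was -0.32 (exact two-sided permutation test, p = 0.4, n = 3 per group, where 0.1 is the smallest p possible). After removal of the chromosome shift, which touches Ezh1 on chromosome 11 far more than Ezh2, it was -0.62 (exact permutation test, p = 0.2). The pair differences were -0.61, -0.16 and -0.19 (exact sign-flip permutation test, p = 0.25, the smallest that 3 pairs allow). Corrected for exonic length, Ezh1 made up 16.6%, 11.9% and 19.8% of the summed CPM per kb of Ezh1 and Ezh2 in WT, and 11.5%, 10.7% and 17.8% in Scl-/- cells. Ezh2 was thus the more abundant of the pair in every library, on the per-length scale.

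**Figure D2:**
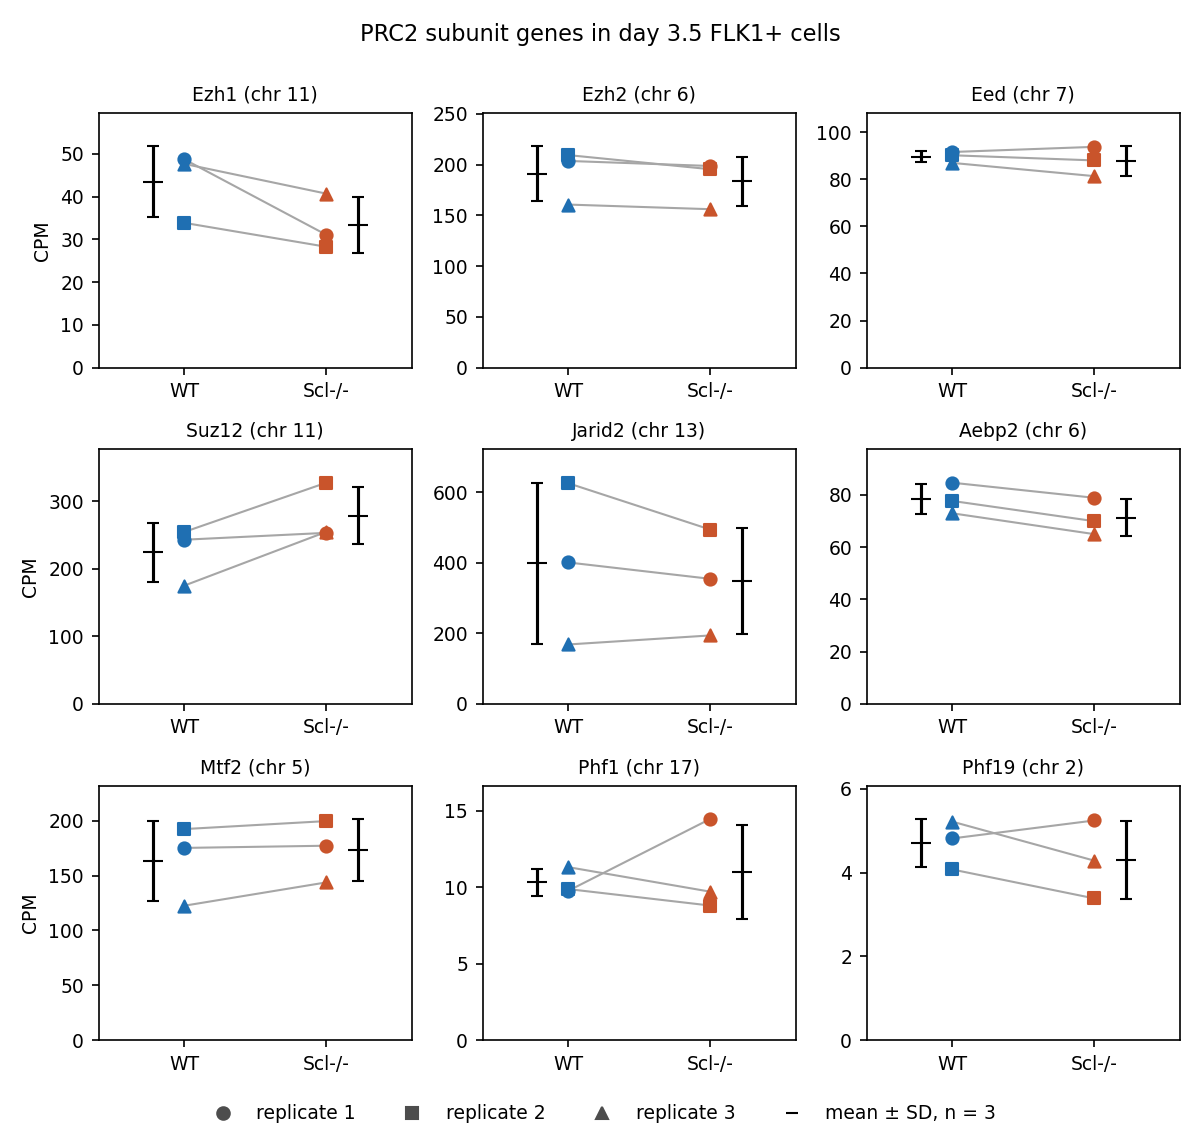
CPM (y axis, from 0) of the 9 PRC2 genes in the 3 WT and 3 Scl-/- libraries (x axis). Symbols mark the replicate number, grey lines join libraries with the same number and black bars show the mean ± SD (n = 3). In each pair the Scl-/- library had less Ezh1 and more Suz12, and Jarid2 ran from 168 to 625 CPM.

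Of the core subunits, EED reads the mark that the complex writes. Eed (ENSMUSG00000030619; chromosome 7, 97103166 to 97129493, minus strand, mm9) had 91.5, 90.1 and 86.9 CPM in WT and 93.7, 87.9 and 81.3 CPM in Scl-/- replicates 1 to 3. These values were the most even of the 9 genes, and the WT range lay within the Scl-/- range. The log2 fold change was -0.032 (SE 0.093, adjusted p = 0.933, limma with Benjamini-Hochberg), with a 95% interval of -0.18 to 0.11 with the block.

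Suz12 (ENSMUSG00000017548), whose protein holds the complex together and whose promoter is the CpG-richest of those printed, also lies on chromosome 11 (79806608 to 79847625, plus strand, mm9). It had 243, 254 and 175 CPM in WT and 253, 327 and 255 CPM in Scl-/- replicates 1 to 3. The groups overlapped, since WT replicate 2 was just above Scl-/- replicate 1, while WT replicate 3 was the lowest library and Scl-/- replicate 2 the highest. Each Scl-/- library was above its WT counterpart, by log2 differences of 0.059, 0.36 and 0.54, so that replicate 1 hardly differed. The mean was 224 ± 42.9 CPM in WT and 278 ± 42.4 CPM in Scl-/- cells (SD, n = 3), with a log2 fold change of 0.32 (SE 0.17, adjusted p = 0.403, limma with Benjamini-Hochberg). With the block the interval was 0.11 to 0.53 (SE 0.090, limma's adjusted p = 0.0353). Without replicate 1 limma's adjusted p with the block was 0.00108, but without replicate 2 it was 0.184 and without replicate 3 it was 0.205, and the log2 fold changes were 0.45, 0.30 and 0.21. With the block but no intensity trend it was 0.109 (limma). A non-coding RNA on the opposite strand, Gm16706, which the table lists by its identifier ENSMUSG00000086787, lies inside the span of Suz12. It had 67.0 ± 13.2 CPM in WT and 80.4 ± 12.3 CPM in Scl-/- cells (SD, n = 3) and a log2 fold change of 0.27, and reads of the pair could not be told apart if they were counted without strand.

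Ezh1 and Suz12 share a chromosome that was shifted as a whole. Chromosome 11 held 1211 tested genes, whose log2 fold changes had a median of 0.31 and were above 0 in 86.5%, against 48.5% of the tested genes elsewhere. Suz12, at 0.32, lay at the 53.8th percentile of the chromosome's genes, in the middle of its distribution. Ezh1, at -0.38, lay at the 5.95th percentile. With the block, 51.4% of the chromosome's genes were called higher and 5.62% lower, and Ezh1 belonged to the second class. The chromosomes of the other 7 members had medians between -0.015 and 0.014. When each chromosome's median deviation was subtracted from each library, Suz12 had a log2 fold change of 0.016 and Ezh1 of -0.68. In that setting, with the block, 1 of 9 members was called, Ezh1 (adjusted p = 0.00112, limma with Benjamini-Hochberg, SE 0.074), against 10.3% of all tested genes called lower and 8.59% called higher, and Suz12 was not (limma's adjusted p = 0.894, 95% interval -0.13 to 0.16). Without the block, the centred value of Ezh1 had limma's adjusted p = 0.142. Whether the chromosome's shift acts on Ezh1 and Suz12 to the same degree as on its other genes was not tested.

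The neighbours of Suz12 followed the chromosome, and those of Ezh1 were mixed. Of the 10 tested genes nearest to Suz12, 5 on each side, 9 were higher in Scl-/- cells (median 0.26), 4 of them called higher with the block. The exception was Crlf3, at -0.098. Gm16706, which is among the 9 but was not called, lies inside the span of Suz12, so its reads may not be separate from those of Suz12. Of the 10 nearest to Ezh1, 5 were higher and 5 lower, with a median of -0.16, and with the block 2 were called higher (Fam134c and Coa3) and 5 lower (Plekhh3, Cntnap1, Ramp2, Wnk4 and Gm11615). The genes called lower lay on both sides of Ezh1, Cntnap1 and Ramp2 being its direct neighbours.

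Wnk4, a kinase gene 3 tested genes away from Ezh1, had 127, 49.99 and 115 CPM in WT and 5.86, 3.24 and 4.44 CPM in Scl-/- replicates 1 to 3. The groups were far apart, and the log2 fold change was -4.21 (SE 0.37, adjusted p = 0.00287, limma with Benjamini-Hochberg). Cntnap1 had 15.4, 7.81 and 14.7 CPM in WT and 3.44, 1.57 and 3.70 CPM in Scl-/- cells, again without overlap, with a log2 fold change of -1.96 (SE 0.35, limma's adjusted p = 0.0367). Plekhh3 had a log2 fold change of -0.94 and Ramp2, for a partner protein of the adrenomedullin receptor, one of -0.40, close to that of Ezh1, and both were called with the block only (limma's adjusted p = 0.00128 and 0.0190). Gm11615 lies within the span of Wnk4 and had a log2 fold change of -3.43 (limma's adjusted p = 0.00903). Vps25, whose span overlaps that of Ramp2, had a log2 fold change of 0.090 (limma's adjusted p = 0.471 with the block). Replicate 2 was the lowest library of both groups for Wnk4, Cntnap1 and Plekhh3, as it was for Ezh1, whereas Ramp2 was lowest in WT replicate 2 but in Scl-/- replicate 1 (85.8 CPM, against 96.7 CPM in Scl-/- replicate 2). The share of Ezh1's shift that is common to its neighbours was not tested.

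**Figure D3:**
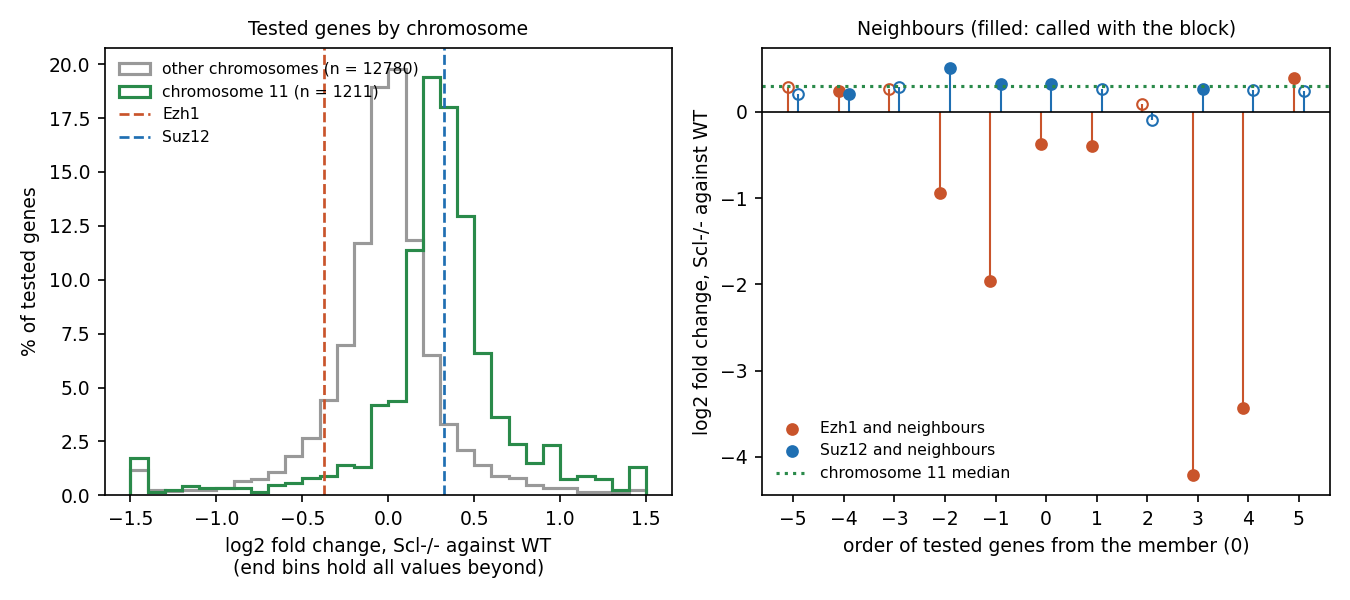
Left, share of tested genes (y axis, %) by log2 fold change, Scl-/- against WT (x axis), for chromosome 11 and for the other chromosomes, with dashed lines at Ezh1 and Suz12. Right, log2 fold change (y axis) of Ezh1, Suz12 and their 5 tested neighbours on each side in gene order (x axis), with filled points for genes called with the block. Suz12 sits near the chromosome's median of 0.31 and Ezh1 lies among genes as low as -4.21.

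The PRC2.2 subunits differed in how steady they were. Jarid2 (ENSMUSG00000038518; chromosome 13, 44824843 to 45017012, plus strand, mm9), for a DNA-binding protein without demethylase activity that helps to bring the complex to chromatin, had 401, 625 and 168 CPM in WT and 354, 494 and 194 CPM in Scl-/- replicates 1 to 3. Replicate 2 was the highest and replicate 3 the lowest in both genotypes, so the libraries were ordered by differentiation and not by genotype. The means of the 3 same-numbered pairs covered a range of 1.62 on the log2(CPM + 0.5) scale, which placed Jarid2 at the 99.0th percentile of all tested genes, whose median range was 0.33. Against that spread the genotypes differed by a log2 fold change of -0.10 (SE 0.51, 95% interval -1.29 to 1.08, adjusted p = 0.966, limma with Benjamini-Hochberg). The block removed most of the spread, and the standard error fell to 0.098 with an interval of -0.33 to 0.12 (limma's adjusted p = 0.493). The pair differences were -0.18, -0.34 and 0.20, without a common direction.

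Aebp2 (ENSMUSG00000030232; chromosome 6, 140570970 to 140626993, plus strand, mm9), for a zinc finger protein that joins JARID2 in PRC2.2, had 84.6, 77.6 and 72.9 CPM in WT and 78.8, 69.9 and 64.9 CPM in Scl-/- cells. Each Scl-/- library was lower than the WT library of its number by a similar step, of -0.10, -0.15 and -0.17 on the log2 scale, while the groups overlapped. The log2 fold change was -0.14 (SE 0.11, adjusted p = 0.613, limma with Benjamini-Hochberg). With the block the interval was -0.28 to 0.005 and limma's adjusted p = 0.147, so Aebp2 did not pass.

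**Figure D4:**
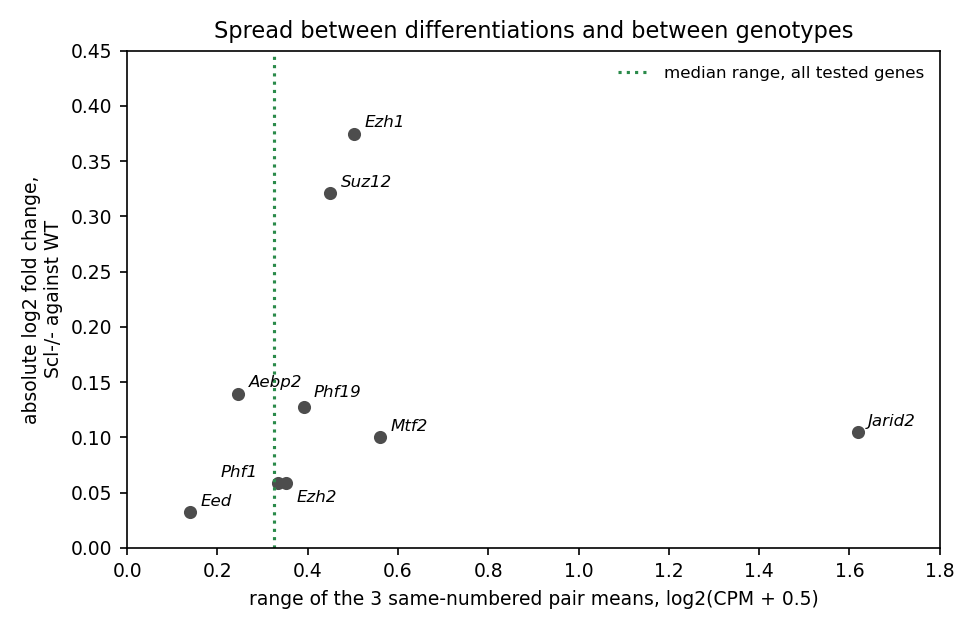
Absolute log2 fold change between genotypes (y axis) against the range of the 3 same-numbered pair means on the log2(CPM + 0.5) scale (x axis) for the 9 PRC2 genes. The dotted line marks the median range of all tested genes, 0.33. Jarid2 lies furthest to the right, at 1.62, and Eed furthest to the left, at 0.14.

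Of the Polycomb-like genes of PRC2.1, Mtf2 (ENSMUSG00000029267; chromosome 5, 108494693 to 108538023, plus strand, mm9) had 175, 192 and 122 CPM in WT and 177, 199.7 and 144 CPM in Scl-/- replicates 1 to 3. As in Jarid2, replicate 2 was the highest and replicate 3 the lowest of both groups, with a range of pair means of 0.56. The pairs differed by 0.016, 0.054 and 0.23 on the log2 scale and the log2 fold change was 0.10 (SE 0.19, adjusted p = 0.886, or 0.311 with the block, limma with Benjamini-Hochberg). Its 3′ end overlaps the span of Tmed5 on the opposite strand, which had 104 ± 13.1 CPM in WT and 121 ± 11.4 CPM in Scl-/- cells (SD, n = 3) and was called higher with the block (log2 fold change 0.22, limma's adjusted p = 0.0353). Reads of Mtf2 and Tmed5 in that overlap cannot be told apart without strand.

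Phf1 (ENSMUSG00000024193; chromosome 17, 27070072 to 27074835, plus strand, mm9) had 9.76, 9.88 and 11.3 CPM in WT and 14.5, 8.80 and 9.71 CPM in Scl-/- cells. Scl-/- replicate 1 stood above the other libraries, and the remaining pairs went the other way (pair differences 0.55, -0.16 and -0.21). The log2 fold change was 0.059, with a 95% interval of -0.31 to 0.43 with the block (adjusted p = 0.833, limma with Benjamini-Hochberg), and -0.15 without Scl-/- replicate 1. Phf19 (ENSMUSG00000026873; chromosome 2, 34749277 to 34769546, minus strand, mm9) had 4.82, 4.08 and 5.22 CPM in WT and 5.25, 3.38 and 4.29 CPM in Scl-/- cells. The groups overlapped and replicate 2 was the lowest of each. Its log2 fold change was -0.13, with an interval of -0.45 to 0.20 with the block (limma's adjusted p = 0.570).

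On the scale of spread between differentiations, the other members had ranges of pair means of 0.50 (Ezh1), 0.45 (Suz12), 0.39 (Phf19), 0.35 (Ezh2), 0.34 (Phf1), 0.25 (Aebp2) and 0.14 (Eed), Eed lying at percentile 14.2 of all tested genes.

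Levels of different genes were compared as CPM per kb of exonic length. Suz12 had the highest mean over the 6 libraries, 50.8 ± 9.79 CPM per kb (SD, n = 6), followed by Eed with 39.9 ± 1.95, Jarid2 with 38.4 ± 18.0, Mtf2 with 32.0 ± 5.63 and Ezh2 with 30.2 ± 3.70 CPM per kb. Suz12, at 35.4 to 66.2 CPM per kb, and Eed, at 36.6 to 42.2, lay above Ezh2, at 25.2 to 33.8 CPM per kb, without overlap, whereas the ranges of all other pairs among these 5 overlapped. A step separated them from Aebp2, with 8.55 ± 0.801 CPM per kb, which was below Ezh2 in 6 of 6 libraries without overlap. Ezh1, with 5.16 ± 1.16 CPM per kb, lay below Aebp2 in 6 of 6 libraries and overlapped Phf1, with 4.39 ± 0.838 CPM per kb. Phf19 was lowest in 6 of 6 libraries, with 0.895 ± 0.144 CPM per kb. The upper order depended on the length used: per kb of the longest transcript, Ezh2 came first with 70.6 CPM per kb and Suz12 next with 57.4 CPM per kb, and Ezh2, at 58.8 to 78.9, then lay above Eed, at 39.4 to 45.4 CPM per kb, without overlap, while Aebp2, Ezh1, Phf1 and Phf19 kept the last 4 places. Mtf2 made up 80.3% to 89.8% of the summed CPM per kb of Mtf2, Phf1 and Phf19, so that it was the main Polycomb-like RNA in each library.

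**Figure D5:**
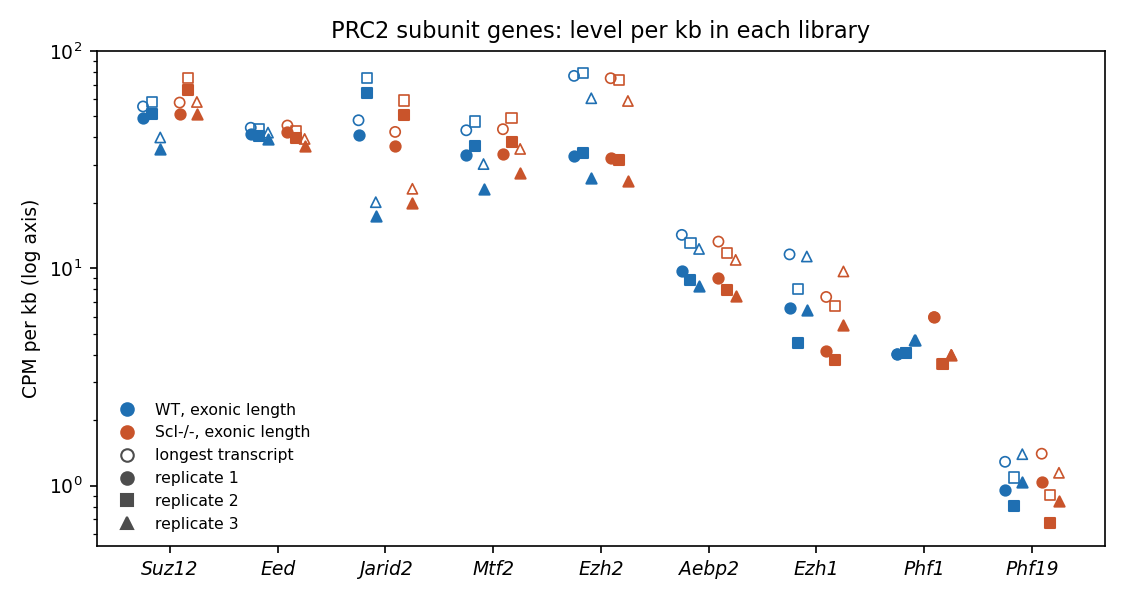
CPM per kb (y axis, log scale) of each PRC2 gene in the 3 WT and 3 Scl-/- libraries, per kb of exonic length (filled) or of the longest transcript (open). Genes are ordered by the mean over 6 libraries per kb of exonic length. Suz12, Eed, Jarid2, Mtf2 and Ezh2 form an upper group of means from 30.2 to 50.8 CPM per kb, and Phf19 is lowest at 0.895 CPM per kb.

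The summed accessory genes moved with the differentiation. The sum of Jarid2 and Aebp2 was 50.9, 73.2 and 25.7 CPM per kb in WT and 45.5, 58.8 and 27.4 CPM per kb in Scl-/- replicates 1 to 3. That of Mtf2, Phf1 and Phf19 was 38.3, 41.4 and 29.0 CPM per kb in WT and 40.7, 42.2 and 32.2 CPM per kb in Scl-/- cells. The ratio of the PRC2.2 to the PRC2.1 sum was 1.33, 1.77 and 0.886 in WT and 1.12, 1.39 and 0.851 in Scl-/- cells, so replicate 3 was the only one in which the PRC2.1 sum exceeded the PRC2.2 sum, in both genotypes. The ratio was lower in the Scl-/- library of each pair and the groups overlapped.

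Further genes that work with or against PRC2 came from lists, described by the same limma fits, in which the median log2 fold change of all tested genes was 0.009. The shares of all tested genes called were 2.38% without the block and, with it, 12.2% lower and 12.0% higher, and the counts of genes called in each list stand against these. Counts at an unadjusted p under 0.05 have no such share beside them. Of 6 partners outside the members, 5 were tested, with a median of -0.026. With the block 1 was called higher and 0 lower, while without it 0 were called and 0 had an unadjusted p under 0.05. The abundant histone-binding partner Rbbp4 had 503 ± 38.2 CPM in WT and 500.4 ± 56.9 CPM in Scl-/- cells (SD, n = 3), with a log2 fold change of -0.011. The gene called was E130012A19Rik, now named Epop, for an elongin-binding PRC2 partner of ES cells, with 84.0, 98.1 and 112 CPM in WT and 103, 122 and 139.5 CPM in Scl-/- replicates 1 to 3. It was higher in each Scl-/- library than in its WT counterpart, with a log2 fold change of 0.31 (adjusted p = 0.352, or 0.00810 with the block, limma with Benjamini-Hochberg). Like Suz12 it lies on chromosome 11, and after removal of the chromosome shift its log2 fold change was 0.003. In that setting it was not called with the block (limma's adjusted p = 0.984). Lcor, the lowest of the list at -0.13, had 20.9, 24.4 and 5.88 CPM in WT and 17.7, 19.3 and 6.71 CPM in Scl-/- cells, and was lowest in replicate 3 as Jarid2 was.

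Of the 4 genes for enzymes that remove H3K27 methylation or acetylate the same residue, 0 were called by limma without the block (unadjusted p under 0.05 for 1) and 2 with it, and the median log2 fold change was -0.14. The demethylase gene Kdm6b, again on chromosome 11, had 290 ± 47.3 CPM in WT and 375 ± 38.8 CPM in Scl-/- cells (SD, n = 3). Its log2 fold change was 0.38 (limma's adjusted p = 0.224, or 0.00845 with the block). After removal of the chromosome shift it was 0.075, and Kdm6b was not called with the block (limma's adjusted p = 0.423). The X-linked demethylase gene Kdm6a had 74.3 ± 9.54 CPM in WT and 61.8 ± 7.44 CPM in Scl-/- cells (SD, n = 3), a log2 difference of -0.26 (limma's adjusted p = 0.394, or 0.0311 with the block). H3K36 methylation is known to impede PRC2. All 5 genes for H3K36 methyltransferases had a lower mean log2 level in Scl-/- cells, from -0.32 (Whsc1) to -0.010 (Setd2) with a median of -0.21. With the block Whsc1 (Nsd2) and Whsc1l1 (Nsd3) were called lower, with log2 fold changes of -0.32 and -0.24 (limma's adjusted p = 0.00861 and 0.0212), while without it 0 were called and 1 had an unadjusted p under 0.05.

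Among 19 genes of PRC1 and its RYBP module, 0 were called by limma without the block, although 6 had an unadjusted p under 0.05, and with it 6 were lower (Pcgf5, Bmi1, Cbx6, Rybp, Rnf2 and Phc3) and 2 higher (Pcgf2 and Cbx2), against 12.2% of all tested genes called lower and 12.0% called higher. The median log2 fold change was -0.040. Pcgf2 and Cbx2 lie on chromosome 11 as Suz12, E130012A19Rik and Kdm6b do, and their log2 fold changes of 0.41 each were 0.11 and 0.10 after removal of the chromosome shift. Rnf2, on chromosome 1, had a log2 fold change of -0.31, and of -0.023 after the same removal. Pcgf2, Cbx2 and Rnf2 were then not called with the block (limma's adjusted p = 0.234, 0.248 and 0.806), while the other genes called lower still were. Phc3, with a log2 fold change of -0.29 (adjusted p = 0.0441, limma with Benjamini-Hochberg and the block), had the smallest change of those called lower.

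Developmental regulators known as carriers of H3K27me3 in ES cells were listed because PRC2 acts on them there. Of 24, 15 were tested, and their median was 0.55 on the log2 scale. Without the block limma called 0, and 5 had an unadjusted p under 0.05. With it, 8 were higher (Lhx1, Irx5, Eomes, T, Irx3, Gata6, Isl1 and Gata4) and 2 lower (Sox17 and Cdx2), against 12.0% and 12.2% of all tested genes. The extremes were Lhx1, with a log2 fold change of 2.15, and Sox17, with one of -2.10. They lie on the shifted chromosomes 11 and 1. After removal of the chromosome shift their log2 fold changes were 1.85 and -1.81, and both were still called with the block. Lhx1 differed widely between replicates 1 to 3, with 28.7, 216 and 36.5 CPM in WT and 83.4, 721 and 340 CPM in Scl-/- cells. Several genes of the list also mark mesoderm, heart or endoderm, so the list does not stand for PRC2 activity, and the mark itself was not measured in these libraries. Summed over the list the level was 1756, 2299 and 1828 CPM in WT and 2231, 3094 and 2554 CPM in Scl-/- replicates 1 to 3, with Tbx3 the most abundant in all 3 WT libraries and in Scl-/- replicate 1, Lhx1 in Scl-/- replicate 2 and Eomes in Scl-/- replicate 3.

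Markers of the cell types in the sorted fraction moved between the genotypes in the same libraries. All 10 haematopoietic-endothelial markers were lower in Scl-/- cells, 7 called without and 10 with the block, with a median log2 fold change of -2.80. Their sum was 1226, 754 and 1283 CPM in WT and 323, 174 and 304 CPM in Scl-/- replicates 1 to 3. Tal1 was the most abundant of them in each WT library and Lmo2, which had the smallest change of the list at -0.50 on the log2 scale, in each Scl-/- library. Tal1 is the disrupted gene that served to check the genotype labels. Its call, and its part of the WT sums (303, 182 and 306 CPM), therefore come with the genotype and are not separate marker evidence. In both groups replicate 2 had the smallest sum, and it was also the library with the least Ezh1. The other replicates did not follow. WT replicate 3 had a larger sum than WT replicate 1 but slightly less Ezh1 (47.7 against 48.7 CPM). Scl-/- replicate 1 had a larger sum than Scl-/- replicate 3 but less Ezh1 (31.1 against 40.7 CPM). Gata1, at 0.225, 0.145 and 0.204 CPM in Scl-/- cells, was near but above the floor of 3 reads, and none of the markers was at 0. Whether this difference has a part in the level of Ezh1 was not tested.

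Of the mesoderm markers 4 of 6 were higher with the block (Pdgfra, Mesp1, T and Etv2; Etv2 also without it), and of the cardiac-paraxial markers 6 of 8 tested (Mesp1, Tbx6, Gata4, Gata6, Isl1 and Msgn1), of which 0 were called without it and 4 had an unadjusted p under 0.05. The median log2 fold changes were 0.76 and 0.58. The other members of both lists had a lower mean log2 level in Scl-/- cells and were not called with the block. Hand1, which is also among the listed H3K27me3 carriers, had 417, 354 and 487 CPM in WT and 444, 217 and 292 CPM in Scl-/- replicates 1 to 3. Its log2 fold change was -0.45, with limma's adjusted p = 0.0606 in the fit with the block. It lies on chromosome 11, and after removal of the chromosome shift its log2 fold change was -0.76 and it was called lower with the block (limma's adjusted p = 0.0297). The log2 fold change was -0.15 for Kdr, -0.70 for Tcf15 and -0.21 for Nkx2-5 (limma's adjusted p = 0.125, 0.0654 and 0.315 with the block). Both marker sums were higher in each Scl-/- library than in its WT counterpart. The mesoderm sum was 1679, 1766 and 1825 CPM in WT and 1828, 2018 and 2056 CPM in Scl-/- cells, with Kdr the most abundant. The cardiac-paraxial sum was 330.3, 523 and 348 CPM in WT and 486, 785 and 689 CPM in Scl-/- cells, with Gata4 the most abundant. Markers of undifferentiated ES cells, in which Jarid2 is known to be abundant, summed to 145, 205 and 128 CPM in WT and 119, 283 and 236 CPM in Scl-/- cells, with Pou5f1 the most abundant. Their median log2 fold change was -0.087, and with the block Pou5f1 and Nanog were called higher and Esrrb lower. The WT sums followed the order of Jarid2, but in Scl-/- cells replicate 3 had a high sum and the least Jarid2. Endoderm markers, with 2 of 4 tested, summed to 14.8, 8.34 and 22.4 CPM in WT and 3.32, 3.12 and 8.44 CPM in Scl-/- cells. Sox17, which is known from endothelium as well as endoderm and was called lower with the block, was the most abundant except in Scl-/- replicate 2, where it had 0.967 CPM and Cer1 2.15 CPM. Cer1 had 0.151, 1.803 and 0.389 CPM in WT and 0.369, 2.15 and 2.88 CPM in Scl-/- replicates 1 to 3, above the WT counterpart in each pair (log2 fold change 0.85, limma's adjusted p = 0.0962 with the block), so that the lower sum came from Sox17.

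Cell cycle genes, which often accompany Ezh2, numbered 12, and their log2 fold changes had a median of -0.097. Without the block limma called 0, 1 having an unadjusted p under 0.05, and with it 3 were lower (Mcm6, Mcm3 and Mki67). Mcm6 and Mcm3 lie on chromosome 1 as Rnf2 does. After removal of the chromosome shift their log2 fold changes went from -0.38 and -0.32 to -0.098 and -0.036, and neither was called with the block (limma's adjusted p = 0.233 and 0.700), while Mki67 was (-0.25, limma's adjusted p = 0.0473). Top2a, on chromosome 11, had the highest log2 fold change of the list, 0.20, and one of -0.11 after the same removal. The sum of the 12 genes was 4320 CPM in WT replicate 1, 4492 CPM in WT replicate 2 and 4856 CPM in WT replicate 3, and 3837, 4376 and 4541 CPM in Scl-/- replicates 1 to 3, with Top2a the most abundant except in WT replicate 3, where it was Mcm5. Replicate 3 had the highest sum and the least Ezh2 in both genotypes, but the genes of the list did not share 1 order. Mcm2 was highest in replicate 3, with 416, 405 and 548 CPM in WT and 364, 414 and 503 CPM in Scl-/- replicates 1 to 3. Mki67 was lowest there, as Ezh2 was, with 448, 510 and 293 CPM in WT and 367, 392 and 278 CPM in Scl-/- cells. The part of any of these cell types or of the cell cycle in the values of the PRC2 genes was not tested.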

How the data were processed

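Total RNA of FLK1+ cells from 3 WT and 3 Scl-/- differentiations was sequenced. The authors deposited CPM values for 14005 genes and 6 libraries in one table, made by alignment to mm9 with TopHat2 2.0.8b, removal of duplicate reads, selection on a mapping quality above 15 with SAMtools 0.1.19 and TMM scaling with edgeR, as the submitters' processing notes and the study's methods name them. The counting tool, annotation, use of strand and the model of the study's own test are not given in the sources used here. Removal of duplicates can lower the values of abundant and short genes.

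Groups and replicate numbers came from the labels. Values in a library were whole multiples of 1 step (100% within 0.05 reads), from which the reads on listed genes were worked out. As the table holds few low values, the requirement for recovered whole reads was not met, and no count model was run. Read floors cover counting error only. The filter asked for 0.5 CPM or more in 3 or more libraries (13991 tested, 14 removed) and log2(CPM + 0.5) values, which understate changes of low genes, were tested with limma 3.58.1 in R 4.3.3 (intensity trend, condition as the only term), with Benjamini-Hochberg adjustment over all tested genes. A gene was called at an adjusted p under 0.05. The study's design gives independent differentiations, and same-numbered libraries deviated together from their group means (correlations across genes of 0.59, 0.76 and 0.75, against -0.62 to -0.10 for other pairs), so the numbers were taken as pairs and the fit with the replicate number as a block is given where it changes a call. Deviations from a group mean cancel out within the group, so the negative values of the other pairs are in part built in. P-values measure the spread between these differentiations of 1 line per genotype. The fitting step was tested on simulated data. When same-numbered libraries were given a shared spread there, the fit without the block missed the changed genes and the fit with it found them.

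Alternatives were other pseudocounts (0.1 or 1), a looser or stricter filter (none, or a mean of 2 CPM or more), median-ratio rescaling, no trend, the block, subtraction of each chromosome's median deviation from each library (chromosome centring) with and without the block, each library left out and an absolute log2 fold change above 0.48. Leaving out pairs, and the other alternatives to the blocked count, were chosen after seeing the data.

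Positions and lengths came from the GENCODE annotation of mm9, which held all tested genes by identifier, and promoters from RefSeq. The members and the gene lists (PRC2 partners, H3K27 demethylases and acetyltransferases, H3K36 methyltransferases, PRC1, H3K27me3 targets and cell type and cell cycle markers) were chosen with earlier results of these data known. From the H3K27me3 target list 1 gene is not reported here, and its counts, median and sums are without it. Named are all members, the genes of each list called in either fit or at its ends, and the 3 genes most like Ezh1 and Ezh2. The haematopoietic-endothelial list is an exception: all 10 of its genes were called with the block, and only Tal1, Lmo2 and Gata1 are named. The most abundant genes of some lists, and the mesoderm and cardiac-paraxial markers that were not called, are named as well. The neighbours of Ezh1 and Suz12, the genes that overlap members, and Rbbp4 were added after their values were seen. Other steps used Python 3.11.15 with NumPy 2.4.6, SciPy 1.17.1, pandas 2.3.3 and Matplotlib 3.10.9. The study's other assays were not used here.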

Additional observations from a re-analysis of the deposited data

How the results depend on the processing

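With the replicate block 3385 genes were called in place of 333, and with chromosome centring and the block 2641. Leaving out each library in turn gave 44 to 384. Of the members, 0 were called without the block, 2 with it and 1 with chromosome centring and the block. From the 2 called with the block, settings chosen after seeing the data gave 1 with chromosome centring, 0 with no intensity trend, 0 with an absolute log2 fold change above 0.48 asked for as well, and 0 to 1 when a pair was left out, which leaves fewer libraries. Ezh1 and Suz12 were both called with the block at either other pseudocount, with either other filter and after median-ratio rescaling. The cause of the other shifts was not tested. The block changed no other member's call. Leaving out each library in turn turned the direction of log2 fold changes that were not called: Ezh2 ran from -0.18 to 0.053, Eed from -0.082 to 0.020, Jarid2 from -0.63 to 0.32, Mtf2 from -0.094 to 0.23, Phf1 from -0.15 to 0.20 and Phf19 from -0.27 to 0.017. Ezh1 (-0.54 to -0.27), Suz12 (0.15 to 0.42) and Aebp2 (-0.21 to -0.076) kept their direction. The log2 ratio of Ezh1 to Ezh2 kept its direction throughout, from -0.59 to -0.12 without single libraries and at -0.62 with chromosome centring. Other pseudocounts (0.1 or 1), filters (none, or a mean of 2 CPM or more), median-ratio rescaling and a fit with no intensity trend without the block changed the direction of no member and called 0 of 9. Per kb of the longest transcript, the levels of 6 of 9 members moved by more than the spread between libraries. With 3 libraries per group, small changes such as that of Aebp2 were at the limit of what could be resolved.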

Other observations

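The genes whose profile over the 6 libraries was most like that of Ezh1 were Ankrd39, Kdm4a and Bpnt1, among 11715 genes that averaged 5 CPM or more. Likeness was the root mean square difference of log2(CPM + 0.5) values centred on each gene's mean, and it was 0.065 for Ankrd39, 0.081 for Kdm4a and 0.082 for Bpnt1, against a median of 0.34 over all genes compared. Ankrd39 had 13.8, 10.3 and 14.7 CPM in WT and 9.55, 9.23 and 12.1 CPM in Scl-/- replicates 1 to 3. As for Ezh1, replicate 2 was the lowest of each group. Kdm4a, a histone demethylase gene, lies on chromosome 4, and Ankrd39 and Bpnt1 lie on chromosome 1, where the median log2 fold change of 789 tested genes was -0.29.

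For Ezh2 the most alike were Ptges3, Nfatc3 and Mbd5, with root mean square differences of 0.019, 0.019 and 0.025 over the same 6 libraries. Ptges3, for a co-chaperone, had 451, 466 and 359.5 CPM in WT and 444, 448 and 343 CPM in Scl-/- cells, and replicate 3 was the lowest of both groups. Seen from Ezh1, Ezh2 came 7844th of the genes compared, with a difference of 0.40, so the profiles of the catalytic pair were further apart than those of most genes from Ezh1. Seen from Ezh2, Aebp2 came 1079th, Eed 1220th and Mtf2 1415th, with differences of 0.11, 0.12 and 0.13. Suz12 came 5225th, Phf1 6781st, Ezh1 9903rd and Jarid2 10996th, with differences of 0.23, 0.28, 0.40 and 0.53, against a median of 0.25, and Phf19 was not compared, as it averaged under 5 CPM.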
